A study of Mus musculus with 16 samples.

Results

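The genes described here encode the ligands of the B7 family and CD72, as measured in CD4 T cells taken from mice in which their antigen was absent, present for a short time, or present throughout. They were 6 genes, Cd86, Cd80, Icosl, Cd274, Pdcd1lg2 and Cd72, of the 18193 genes on the array, and 11 of its 45101 probe sets carried their symbols. For each gene the values are those of its brightest probe set, by the mean of all 16 arrays. Cd86 and Cd72 were chosen by their levels in the antigen comparisons, where they had been seen to be lower with antigen, so their differences between antigen regimes are given as a description with no test. Cd80, Icosl, Cd274 and Pdcd1lg2 were tested in every comparison.

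B7 ligands are surface proteins best known from dendritic cells, macrophages and activated B cells, where they adjust the response of a T cell that recognises peptide on the same cell. CD80 and CD86 bind CD28, which supports activation, and CTLA-4, which restrains it. The ICOS ligand binds ICOS, and the ligands PD-L1 (Cd274) and PD-L2 (Pdcd1lg2) bind the inhibitory receptor PD-1. CD72 is a lectin-like inhibitory receptor best known from B cells, which binds the semaphorin CD100 (Sema4d) and recruits the phosphatase SHP-1 (Ptpn6). T cells can carry several of these ligands themselves, PD-L1 among them.

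The RNA came from AND T cells, which carry a transgenic T cell receptor for a moth cytochrome c peptide. Lymph node cells with the congenic marker CD90.1 were given to recipients of the Ii-rTA/TIM line, in which doxycycline controls expression of the peptide, and CD4+CD90.1+ cells were sorted 60 hours later. All mice were B10.BR and 6 to 8 weeks old. Recipients were also injected with FGK45.5, a stimulating antibody to CD40 used to activate dendritic cells, or with PBS. Without antigen there were 2 arrays with anti-CD40 and 3 with PBS, with transient antigen 2 with anti-CD40 and 3 with PBS, and with persistent antigen 3 with anti-CD40 and 3 with PBS. Recipients without antigen carried TIM but lacked Ii-rTA, and all others carried both transgenes, so absence of antigen cannot be told apart from absence of Ii-rTA. The titles call the regimes no, short and long doxycycline. Nothing in the labels says that replicates are different animals. The p-values thus rest on how much these samples vary, and that variation may be technical. Fewer cells of a type and less RNA per cell cannot be told apart in such bulk samples.

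The arrays carrying replicate number 2 stood apart. Their mean intensity was 83.46 to 101.4, against 111.7 to 120.6 in replicate 1 and 106.3 to 115.2 in replicate 3. Replicate 3 lacked anti-CD40 arrays without antigen and with transient antigen. By their array numbers, the replicate 2 arrays also fell into runs of their own, one without antigen and another with it. These runs were set here from the larger gaps between array numbers and are not given by the labels. Replicates 1 and 3, whose numbers lay closer together, were taken as 1 run. Markers of T cell identity were all above the median probe set of 4.37 (13 of 13 measured), and their mean level was 8.85 to 9.72 on each array. All levels are log2(intensity + 1), and levels of different genes are not compared because each probe set has its own scale.

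Cd86, whose product is one of the ligands of CD28 and CTLA-4, was at 6.77 and 6.18 without antigen with anti-CD40 and at 6.88, 7.08 and 6.39 without antigen with PBS. With transient antigen it was at 5.12 and 5.33 with anti-CD40, against 6.41, 7.49 and 7.70 with PBS. With persistent antigen it was at 4.84, 4.73 and 4.57 with anti-CD40 and at 5.03, 4.83 and 4.65 with PBS. The arrays of transient antigen with PBS and of both groups without antigen overlapped, while every array with persistent antigen, and both with transient antigen and anti-CD40, lay below every array of the other 3 groups. The order of the group means was transient antigen with PBS (7.20 ± 0.69, SD, n = 3), no antigen with PBS (6.78 ± 0.36, n = 3), no antigen with anti-CD40 (6.47 ± 0.42, n = 2), transient antigen with anti-CD40 (5.22 ± 0.15, n = 2), persistent antigen with PBS (4.84 ± 0.19, n = 3) and persistent antigen with anti-CD40 (4.71 ± 0.14, n = 3). Only the third and the fourth of these, and the fourth and the fifth, differed from their neighbour by more than the larger SD without overlap.

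**Figure D1:**
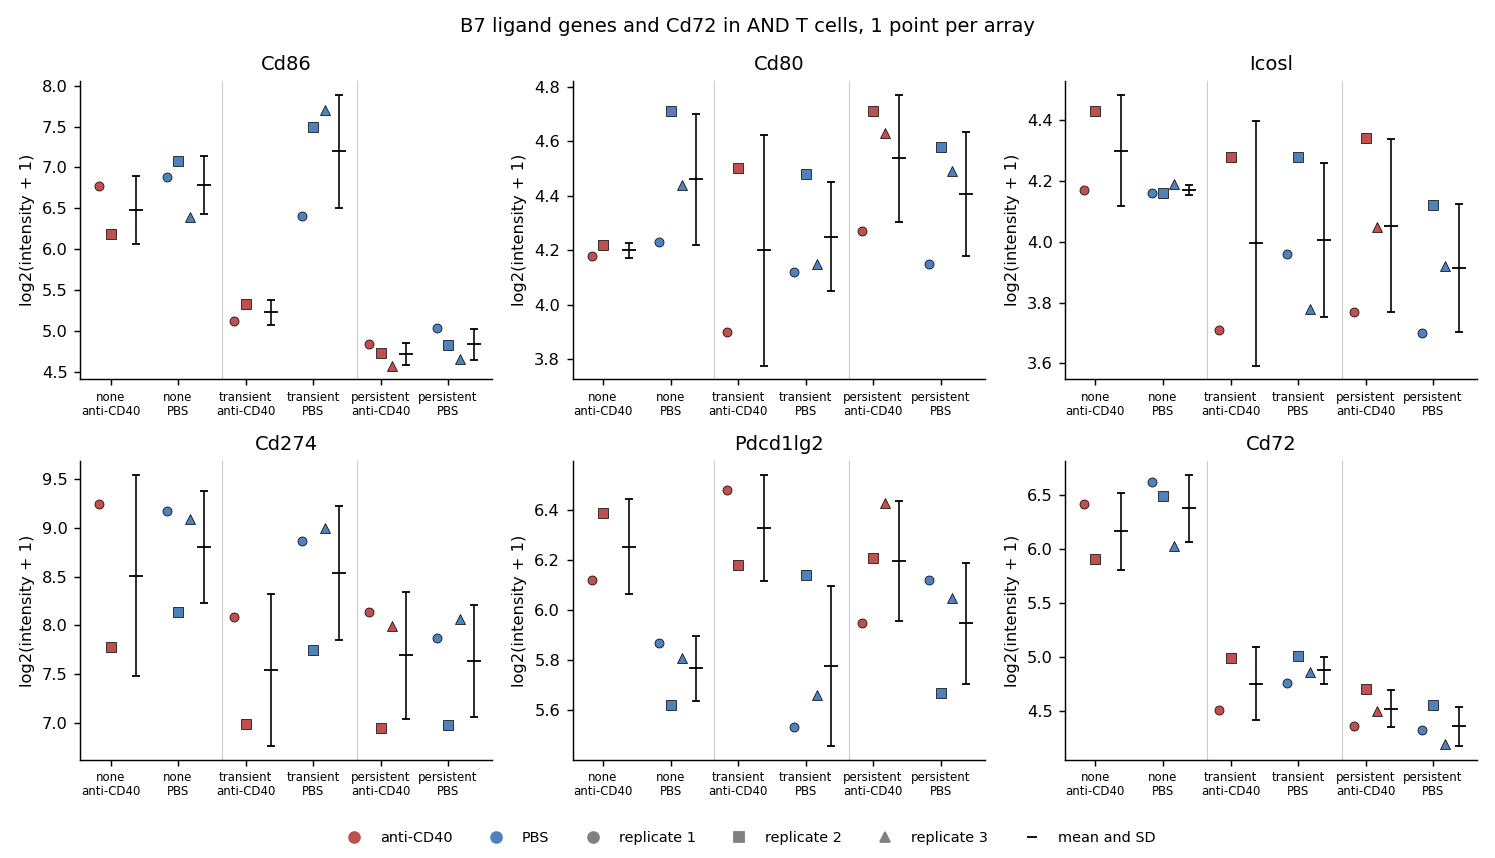
Levels of the 6 genes as log2(intensity + 1), 1 point per array, in the 6 groups, with anti-CD40 left of PBS in each antigen regime; bars are the group mean and SD. Cd86 is low with persistent antigen and with transient antigen plus anti-CD40, Cd72 is low in all 4 groups with antigen, and Cd80 and Icosl stay within 1 unit on each axis.

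The differences of Cd86 between antigen regimes, which had led to its choice, are given as a description for each treatment. With PBS, persistent antigen was lower than no antigen by a log2 difference of −1.94 (SE 0.30) and lower than transient antigen by −2.36 (SE 0.30), while transient antigen differed from no antigen by 0.42 (SE 0.30). Within replicate numbers that last difference was −0.47, 0.41 and 1.31, so its direction was not shared by the 3 replicates. With anti-CD40, persistent antigen differed from no antigen by −1.76 (SE 0.34), transient antigen from no antigen by −1.25 (SE 0.37), and persistent from transient antigen by −0.51 (SE 0.34).

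The comparison of anti-CD40 with PBS was not itself used to choose the gene. Its arrays, with PBS and with anti-CD40 alike, are all part of the antigen comparisons that were. The p-values of the anti-CD40 comparisons of Cd86 are thus not independent of that choice. With transient antigen, Cd86 fell with anti-CD40 by a log2 difference of −1.97 (SE 0.34, 95% interval −2.70 to −1.25), which is 3.929-fold lower, with an adjusted p of 0.026 in limma. It was lower in both replicate numbers that have the pair, by −1.29 and −2.15. In this comparison 1 of 6 genes described here was called, and 0.638% of all genes were. With a block for the replicate number, the difference was −2.0 (SE 0.30) with an adjusted p of 0.00025 in limma. Without the block the call was lost when the fit held the compared groups alone (adjusted p = 0.32) or lacked transient PBS replicate 2 (0.086), transient PBS replicate 3 (0.1) or transient anti-CD40 replicate 1 (0.46). With the block it was lost in 0 of 16 fits that each lacked 1 array. Without antigen the difference was −0.31 (95% interval −1.03 to 0.42), and with persistent antigen it was −0.12 (95% interval −0.77 to 0.52), both with an adjusted p of 1 in limma. The effect of anti-CD40 with persistent antigen minus that with transient antigen was 1.85 (SE 0.45) and that with transient minus that without antigen was −1.67 (SE 0.48). No test is given for these differences of effects, since they are built from the antigen differences that led to the choice.

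A second probe set of Cd86 was dimmer. It was at 5.34 and 4.83 without antigen with anti-CD40, and at 5.60, 5.32 and 5.50 with PBS. In the transient regime it was at 4.22 and 4.11 with anti-CD40, against 5.43, 5.83 and 6.09 with PBS. With persistent antigen it was at 4.15, 4.12 and 3.71 with anti-CD40 and at 4.34, 4.37 and 4.13 with PBS, near or below the median probe set. As in the first probe set, all arrays with persistent antigen and both with transient antigen and anti-CD40 lay below every array of the other 3 groups. The step between transient antigen with anti-CD40 and persistent antigen with PBS was not seen, since their means were 4.16 and 4.28 and their arrays overlapped.

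Other markers also differed between the transient groups. The mean level of the T cell identity markers was 9.10 to 9.13 with transient antigen and anti-CD40, against 9.56 to 9.72 with PBS, and that of 9 MHC class II presentation genes was 4.78 to 5.01, against 5.04 to 5.62. The mean level of 18 B cell markers was 4.94 to 5.15 with anti-CD40, against 5.11 to 5.36 with PBS, and that of 19 dendritic cell and macrophage markers was 4.71 to 4.99, against 4.69 to 5.01. The mean level of 9 NK and CD8 T cell markers was 5.19 to 5.46 with anti-CD40, against 4.90 to 5.09 with PBS, and that of 8 granulocyte and erythrocyte markers was 3.82 to 4.01, against 3.93 to 4.15. The mean levels of the T cell identity and class II lists were lower with anti-CD40 without overlap. That of the NK and CD8 list was higher without overlap, and the other 3 lists overlapped. The median difference of the 9 NK and CD8 genes was −0.16, or −0.05 with the block, so most of them did not share the higher mean. None of the class II genes was called in this comparison with or without the block. With the block 2 T cell identity markers fell, Cd5 and Bcl11b, while among B cell markers Cd37 fell and Cd22 rose, and among NK and CD8 markers Nkg7 rose, when 10.5% of all genes were called. The part of any of them in the level of Cd86 was not tested.

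Cd80, which encodes the other ligand of CD28 and CTLA-4, was dim, its probe set lying at the 49.89th percentile of all probe sets. It was at 4.18 and 4.22 without antigen with anti-CD40 and at 4.23, 4.71 and 4.44 with PBS. Under transient antigen it was at 3.90 and 4.50 with anti-CD40 and at 4.12, 4.48 and 4.15 with PBS. With persistent antigen it was at 4.27, 4.71 and 4.63 with anti-CD40 and at 4.15, 4.58 and 4.49 with PBS. The 2 arrays without antigen with anti-CD40 lay just below those with PBS and below those of persistent antigen with anti-CD40, other groups overlapped, and no neighbours in the order of means differed by more than their SD. Differences between antigen regimes were −0.21 to 0.34, with a smallest adjusted p of 0.54 in limma, and those between anti-CD40 and PBS were −0.26 to 0.13. Its other 3 probe sets were dimmer still. The values used here hold no detection calls, so how far Cd80 lay above background is not known.

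Icosl, which encodes the ligand of ICOS, was also dim, at the 42.85th percentile. It was at 4.17 and 4.43 without antigen with anti-CD40 and at 4.16, 4.16 and 4.19 with PBS. With transient antigen it was at 3.71 and 4.28 with anti-CD40 and at 3.96, 4.28 and 3.78 with PBS, and with persistent antigen it was at 3.77, 4.34 and 4.05 with anti-CD40 and at 3.70, 4.12 and 3.92 with PBS. The highest values of the antigen groups lay in replicate 2, and the groups overlapped except that persistent antigen with PBS stayed below both groups without antigen. Its differences were −0.30 to 0.06 between antigen regimes and −0.01 to 0.14 between anti-CD40 and PBS, none of them called with or without the block. A second probe set of Icosl was dimmer, at the 38.05th percentile. Its group means with anti-CD40 and with PBS were 4.04 and 4.24 without antigen, and 3.78 and 4.02 with transient antigen. Both were 3.62 with persistent antigen. In this probe set replicate 2 was not always the highest array of the antigen groups.

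Cd274, which encodes PD-L1, was bright, at the 93.09th percentile of probe sets. Without antigen it was at 9.24 and 7.78 with anti-CD40 and at 9.17, 8.14 and 9.09 with PBS. In the transient regime it was at 8.09 and 6.99 with anti-CD40, against 8.86, 7.75 and 9.0 with PBS, and with persistent antigen it was at 8.14, 6.95 and 7.99 with anti-CD40 and at 7.87, 6.98 and 8.06 with PBS. In each group the array of replicate 2 was the lowest. The group means were 8.80 ± 0.57 without antigen with PBS, 8.54 ± 0.68 with transient antigen and PBS, 8.51 ± 1.03 without antigen with anti-CD40, 7.69 ± 0.65 with persistent antigen and anti-CD40, 7.64 ± 0.58 with persistent antigen and PBS and 7.54 ± 0.78 with transient antigen and anti-CD40. In that order all neighbours overlapped and differed by less than their SD. The arrays without antigen with PBS lay above those of persistent antigen with PBS and of transient antigen with anti-CD40.

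Tested without the replicate block, Cd274, Cd80, Icosl and Pdcd1lg2 gave 0 calls in 24 tests between antigen regimes in limma, with 1 unadjusted p under 0.05, that of Cd274 for persistent against no antigen with PBS. Each of the 6 comparisons had 0 of 4 genes called. Among all genes the share called was 0.126% for transient against no antigen with PBS and 0.572% with anti-CD40, 3.57% for persistent against no antigen with PBS and 2.37% with anti-CD40, and 0.929% for persistent against transient antigen with PBS and 0.00550% with anti-CD40.

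With the block, Cd274 was called lower in 4 of the 6 antigen comparisons. It fell with persistent against no antigen by −1.17 (SE 0.15, adjusted p = 1.5e-05 in limma) with PBS, or 2.243-fold, where the fit without the block gave −1.17 (SE 0.51, adjusted p = 0.33). Within replicates 1, 2 and 3 this difference was −1.30, −1.16 and −1.04. It fell with persistent against no antigen with anti-CD40 by −1.0 (SE 0.17, adjusted p = 0.00042), against −0.82 (SE 0.57, adjusted p = 0.58) without the block, and within the 2 replicates that have both groups it was −1.10 and −0.83. It fell with persistent against transient antigen with PBS by −0.90 (SE 0.15, adjusted p = 0.00047), where the adjusted p without the block was 0.56. It fell with transient against no antigen with anti-CD40 by −0.97 (SE 0.19, adjusted p = 0.0013), where the adjusted p without the block was 0.69. The shares of all genes called with the block were much higher as well, at 16.7%, 16.4%, 11.4% and 14.0% in these 4 comparisons. Each of the 4 calls was kept in all 16 fits with the block that lacked 1 array. In the comparisons with no antigen, the replicate 2 arrays of the compared groups came from different runs of array numbers. For transient against no antigen with PBS the difference of Cd274 was −0.27 (adjusted p = 0.45 with the block, when 2.89% of all genes were called), and for persistent against transient antigen with anti-CD40 it was −0.03 with the block (adjusted p = 1, when 0.0770% of all genes were called).

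**Figure D2:**
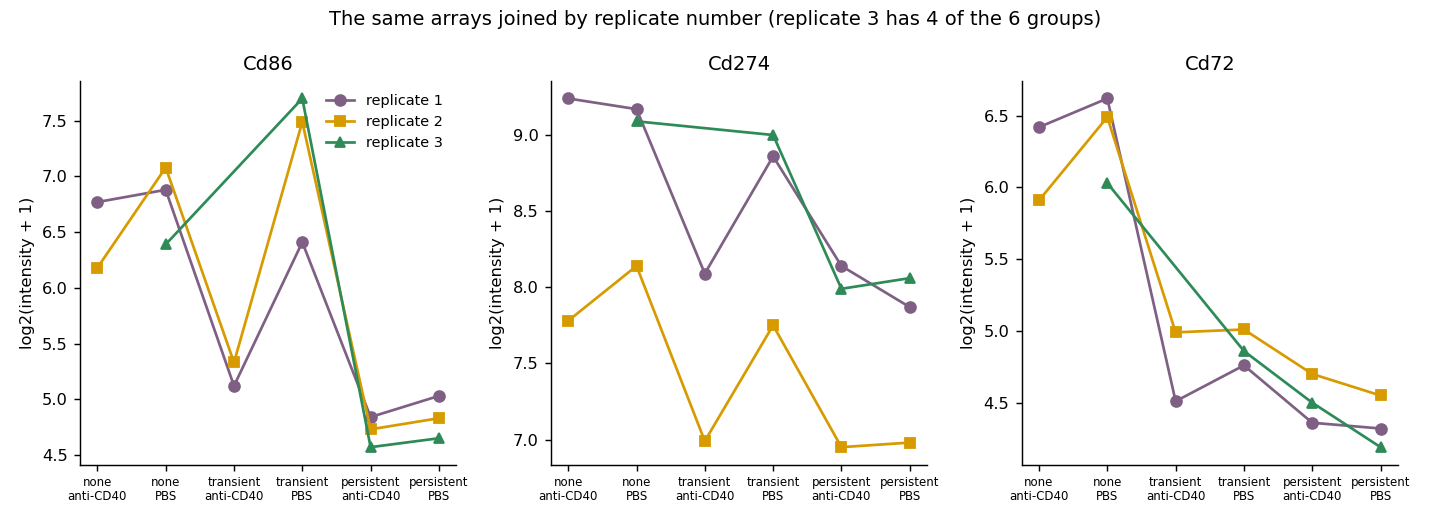
Levels of Cd86, Cd274 and Cd72 as log2(intensity + 1) in the 6 groups, with the arrays of each replicate number joined by a line; replicate 3 has 4 of the 6 groups. For Cd274 the line of replicate 2 runs below the lines of the other replicates in every group they share.

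With transient antigen and the block, Cd274 also fell with anti-CD40 against PBS, by −0.81 (SE 0.17, 95% interval −1.18 to −0.45), which is 1.759-fold, with an adjusted p of 0.0041 in limma. Within the 2 replicates it was −0.77 and −0.76. Without the block the estimate was −1.0 (SE 0.57, adjusted p = 0.71). This made 2 of 6 genes called lower in that comparison with the block, Cd86 and Cd274, when 10.5% of all genes were called. The call of Cd274 was lost in 1 of 16 fits, the one without transient anti-CD40 replicate 1 (adjusted p = 0.079). Without antigen the anti-CD40 difference of Cd274 was −0.11 and with persistent antigen it was 0.06 with the block, neither called. The difference between the anti-CD40 effects with persistent and with transient antigen was 0.87 with the block (adjusted p = 0.060), and that between transient and no antigen was −0.71 (adjusted p = 0.12), so a difference of effect between regimes was not called for this gene.

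Over the 16 arrays, centred on their replicate number, the levels of Cd274 and Cd86 had a Pearson correlation of 0.91, those of Cd274 and Cd72 of 0.87, and those of Cd86 and Cd72 of 0.66. Without centring these were 0.59, 0.49 and 0.66. The arrays share their groups and RNA preparation, so these values describe how alike the patterns are.

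The promoter window of Cd274 in RefSeq is shown because this gene was called between antigen regimes with the replicate block, though not without it, and was not chosen on those comparisons. The window lies on the plus strand of GRCm38.p6 at chr19:29367188-29367487 and spans the annotated start of the gene. It was searched on both strands for GAGGAA (Ets-type) and TTCNNNGAA (STAT-type, N being any base), and neither was found, so it is wholly in lower case.
Cd274 promoter: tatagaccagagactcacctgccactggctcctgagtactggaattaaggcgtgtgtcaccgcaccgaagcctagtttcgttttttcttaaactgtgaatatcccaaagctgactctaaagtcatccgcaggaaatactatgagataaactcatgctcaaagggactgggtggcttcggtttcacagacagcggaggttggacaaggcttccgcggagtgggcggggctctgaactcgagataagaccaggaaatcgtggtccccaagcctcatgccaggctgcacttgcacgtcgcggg
GAGGAA stands in 28.3% and TTCNNNGAA in 8.3% of the 32851 mouse promoter windows of the same length. Of the 5 genes that could be matched to the RefSeq table, Pdcd1lg2 and Cd72 held 1 GAGGAA each and Cd80, Icosl and Cd274 held neither motif, so no 2 matches overlapped.

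Pdcd1lg2, which encodes PD-L2, starts 43.5 kb from Cd274 on chromosome 19 and its levels correlated with those of Cd274 at −0.45 over the 16 centred arrays. Without antigen it was at 6.12 and 6.39 with anti-CD40, against 5.87, 5.62 and 5.81 with PBS. Under transient antigen it was at 6.48 and 6.18 with anti-CD40, against 5.53, 6.14 and 5.66 with PBS, and with persistent antigen it was at 5.95, 6.21 and 6.43 with anti-CD40, against 6.12, 5.67 and 6.05 with PBS. The anti-CD40 arrays lay above the PBS arrays without overlap in the absence of antigen and with transient antigen, and the groups overlapped with persistent antigen. The anti-CD40 difference was 0.49 (95% interval −0.03 to 1.01, adjusted p = 1) without antigen, 0.56 (95% interval 0.03 to 1.08, adjusted p = 0.48) with transient antigen and 0.25 (95% interval −0.22 to 0.72, adjusted p = 1) with persistent antigen in limma. With the block the smallest adjusted p was 0.11, for transient antigen. None of the 3 was called. In the order of means the 3 anti-CD40 groups (6.33 with transient, 6.26 without and 6.20 with persistent antigen) stood above the 3 PBS groups (5.95 with persistent, 5.78 with transient and 5.77 without antigen), and all neighbours overlapped. Between antigen regimes its differences were −0.13 to 0.18.

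**Figure D3:**
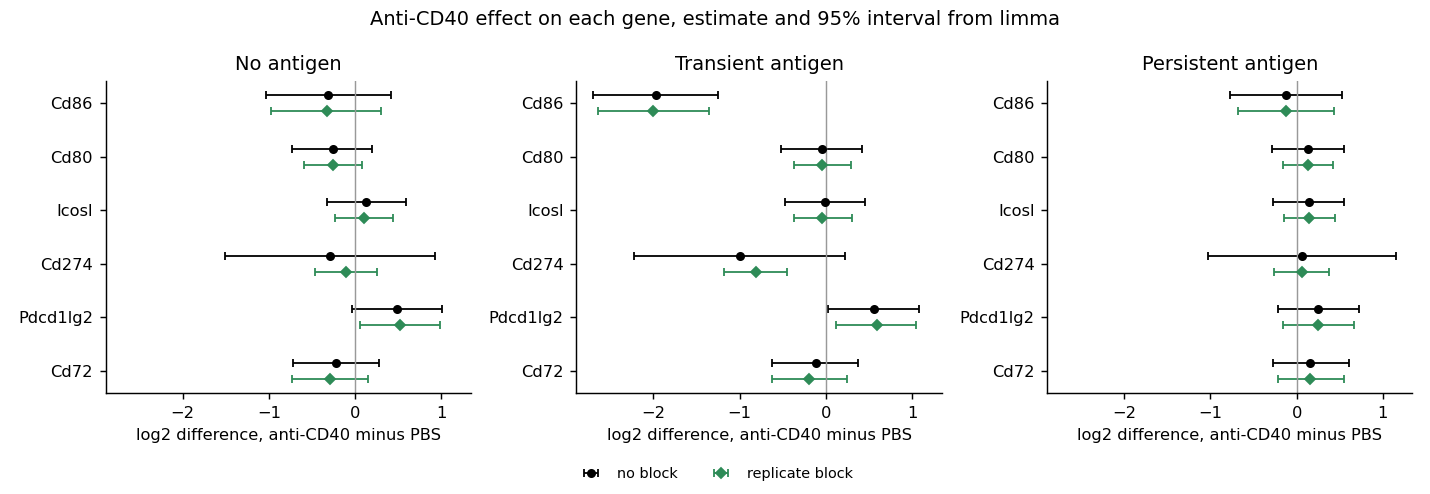
Log2 difference of anti-CD40 minus PBS for each of the 6 genes without antigen, with transient and with persistent antigen, from limma without a block (circles) and with a replicate block (diamonds); bars are 95% intervals. Cd86 with transient antigen is at −1.97 and −2.0, and the intervals of Cd274 are wide without the block and narrow with it.

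In the anti-CD40 comparison without antigen 0 of 6 genes were called in limma, with no unadjusted p under 0.05, when 0% of all genes were called. With persistent antigen 0 of 6 were called, again with none under 0.05 unadjusted, when 0% of all genes were called. With the block, 0.00550% and 0% of all genes were called in these 2 comparisons. For the differences of anti-CD40 effects between regimes, 0 of 12 tests on the 4 genes were called without the block, with no unadjusted p under 0.05, when 0% of all genes were called. With the block 0 of 12 were called and 2 had an unadjusted p under 0.05. In that fit 3.69% of all genes were called for transient against no antigen, 1.79% for persistent against transient antigen and 0% for persistent against no antigen.

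Cd72 separated the regimes in another way. Without antigen it was at 6.42 and 5.91 with anti-CD40 and at 6.62, 6.49 and 6.03 with PBS. With transient antigen it was at 4.51 and 4.99 with anti-CD40 and at 4.76, 5.01 and 4.86 with PBS. With persistent antigen it was at 4.36, 4.70 and 4.50 with anti-CD40 and at 4.32, 4.55 and 4.19 with PBS. All 5 arrays without antigen lay above all 11 arrays with it, whatever the treatment. The group means were 6.38 ± 0.31 without antigen with PBS, 6.16 ± 0.36 without antigen with anti-CD40, 4.88 ± 0.13 with transient antigen and PBS, 4.75 ± 0.34 with transient antigen and anti-CD40, 4.52 ± 0.17 with persistent antigen and anti-CD40 and 4.35 ± 0.18 with persistent antigen and PBS. In that order only the step of 1.28 between no antigen with anti-CD40 and transient antigen with PBS was larger than the SD without overlap. Among groups that are not neighbours, all arrays of transient antigen with PBS lay above all those of persistent antigen with PBS. With anti-CD40 the transient and persistent arrays overlapped.

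As a description, Cd72 was lower with transient than with no antigen by −1.50 (SE 0.21) with PBS and −1.41 (SE 0.25) with anti-CD40, and lower with persistent than with no antigen by −2.02 (SE 0.21) and −1.64 (SE 0.23). Between persistent and transient antigen the difference was −0.52 (SE 0.21) with PBS and −0.23 (SE 0.23) with anti-CD40. Between anti-CD40 and PBS, Cd72 was not called in any regime. Its differences were −0.22 without antigen (95% interval −0.72 to 0.28), −0.12 with transient antigen (−0.62 to 0.37) and 0.16 with persistent antigen (−0.28 to 0.61), each with an adjusted p of 1 in limma. The groups without antigen also came from recipients of another genotype, and their replicate 2 arrays came from another run of array numbers, as given above.

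The promoter window of Cd72 in RefSeq is shown because every array with antigen had a lower level of this gene than every array without it. It lies on the minus strand of GRCm38.p6 at chr4:43454577-43454876, and the capitals mark the only match to either motif, a GAGGAA on the opposite strand, 47 to 42 bases before the start.
Cd72 promoter: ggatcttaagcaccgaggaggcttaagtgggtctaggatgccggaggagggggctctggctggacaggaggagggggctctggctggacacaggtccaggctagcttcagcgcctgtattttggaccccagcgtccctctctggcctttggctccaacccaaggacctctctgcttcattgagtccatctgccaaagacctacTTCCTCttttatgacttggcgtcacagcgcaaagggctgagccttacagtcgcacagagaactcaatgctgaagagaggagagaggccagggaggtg
The match is a description of the letters in this window, and 28.3% of promoter windows hold it.

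Because CD72 and CD86 are best known from B cells and other antigen-presenting cells, the markers of those cells are given beside them. The mean level of 18 B cell markers was 5.33 to 5.37 without antigen with anti-CD40 and 5.15 to 5.26 with PBS, 4.94 to 5.15 with transient antigen and anti-CD40 and 5.11 to 5.36 with PBS, and 5.15 to 5.40 with persistent antigen and anti-CD40 and 5.16 to 5.38 with PBS. Over all arrays 9 of the 18 B cell markers averaged above the median probe set. Among these, Ighm, the heavy chain of IgM, had group means of 9.15 to 10.07, Cd37, a tetraspanin, of 7.59 to 8.97, Cd22, an inhibitory receptor of B cells, of 6.56 to 8.00, and Ms4a1, the B cell surface protein CD20, of 5.41 to 7.10. Cd79a, part of the B cell receptor, had group means of 3.29 to 3.68, and Pax5, a transcription factor of B cells, of 3.89 to 4.05, both below the median probe set in every group. No B cell marker fell in any antigen comparison without the block. With the block, 4 of 18 fell and 1 rose with transient against no antigen with anti-CD40, when 14.0% of all genes were called, and 5 fell and 3 rose with persistent against no antigen with anti-CD40, when 16.4% were. With PBS, 0 fell and 1 rose with transient against no antigen, when 2.89% of all genes were called, and 1 fell and 3 rose with persistent against no antigen, when 16.7% were. With persistent against transient antigen with PBS, Cd37 and Bank1 fell, by −1.03 (SE 0.22) and −0.66 (SE 0.21), and 2 others rose, when 11.4% of all genes were called. Ms4a1 fell by −1.66 (SE 0.31, adjusted p = 0.0011) with transient against no antigen with anti-CD40, while Pou2af1, a coactivator of B cell genes, rose by 2.06 (SE 0.21, adjusted p = 8.3e-07) with persistent against no antigen with PBS. The mean level of 19 dendritic cell and macrophage markers was 4.69 to 5.01 over all arrays. Of them 11 averaged above the median probe set. Itgax (CD11c) had group means of 4.18 to 4.45 and Flt3 of 4.48 to 4.77, close to the median probe set. Ctss, a lysosomal protease that cleaves the invariant chain of class II, was bright, at 11.62 ± 0.37 without antigen with anti-CD40 and 11.68 ± 0.14 with PBS, 11.04 ± 0.21 with transient antigen and anti-CD40 and 11.64 ± 0.11 with PBS, and 10.90 ± 0.43 with persistent antigen and anti-CD40 and 11.04 ± 0.31 with PBS. With the block Ctss fell with persistent against no antigen by −0.64 (SE 0.18, adjusted p = 0.016) with PBS and −0.78 (SE 0.20, adjusted p = 0.011) with anti-CD40, and with persistent against transient antigen with PBS by −0.60 (SE 0.18, adjusted p = 0.033). In each of these comparisons Ctss was the only 1 of the 19 markers called, when 16.7%, 16.4% and 11.4% of all genes were. The medians of the 19 markers were 0.11, −0.06 and 0.01 in the same order. The part of B cells or other cells in the levels of Cd86 and Cd72 was not tested.

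**Figure D4:**
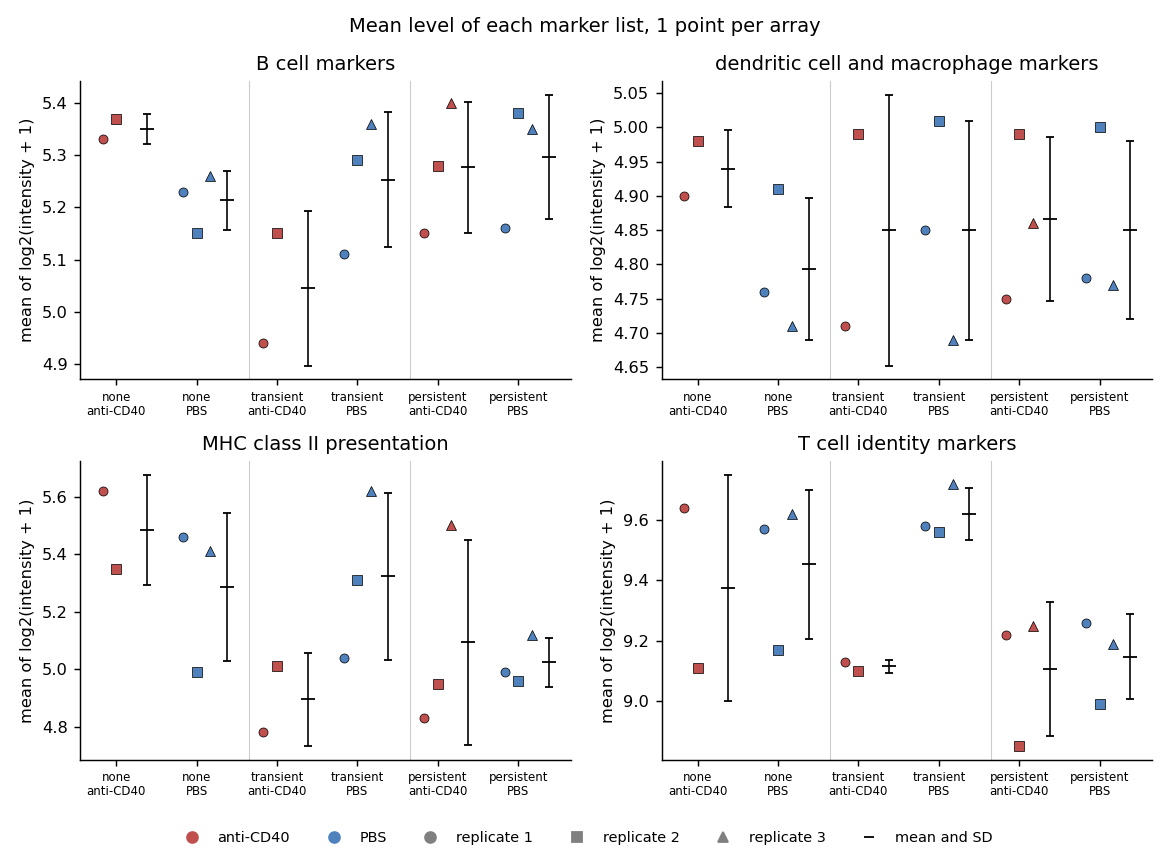
Mean level of 4 marker lists, as the mean of log2(intensity + 1) over the list's genes, 1 point per array, in the 6 groups; bars are the group mean and SD. The B cell list is between 4.94 and 5.40 on every array, and the T cell identity list is at 9.10 to 9.13 with transient antigen and anti-CD40, against 9.56 to 9.72 with PBS.

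The receptors for these ligands were measured on the same arrays. Ctla4, the inhibitory receptor for CD80 and CD86, was at 7.69 and 5.57 without antigen with anti-CD40 and at 6.68, 5.15 and 5.73 with PBS. In the transient regime it was at 8.68 and 7.47 with anti-CD40 and at 8.38, 7.27 and 7.77 with PBS, and with persistent antigen it was at 8.41, 7.65 and 7.53 with anti-CD40 and at 8.24, 7.30 and 7.55 with PBS. In each replicate every array with antigen was above the arrays without it. None of the 5 CD28 family receptors was called without the block, when at most 3.57% of all genes were called in a comparison. With it, Ctla4 rose with transient against no antigen by 1.95 (SE 0.21, adjusted p = 2.1e-05 in limma) with PBS and 1.44 (SE 0.25, adjusted p = 0.00064) with anti-CD40, and with persistent against no antigen by 1.84 (SE 0.21, adjusted p = 2.6e-06) with PBS and 1.31 (SE 0.24, adjusted p = 0.00058) with anti-CD40. Icos, the receptor of the ICOS ligand, rose by 0.99 (SE 0.20, adjusted p = 0.0014) with persistent against no antigen with PBS. Pdcd1, which encodes PD-1, rose by 0.85 (SE 0.20, adjusted p = 0.005) with persistent against no antigen with anti-CD40. Cd28 and Btla were not called in any comparison. With the block and transient against no antigen, 1 of 5 receptors rose with PBS, when 2.89% of all genes were called. With anti-CD40 2 of 5 rose, when 14.0% were. For persistent against no antigen, 2 of 5 rose with PBS, when 16.7% of all genes were called. With anti-CD40 3 of 5 rose and 0 fell, when 16.4% were. In that last comparison the list median was 0.85, against −0.03 over all genes.

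**Figure D5:**
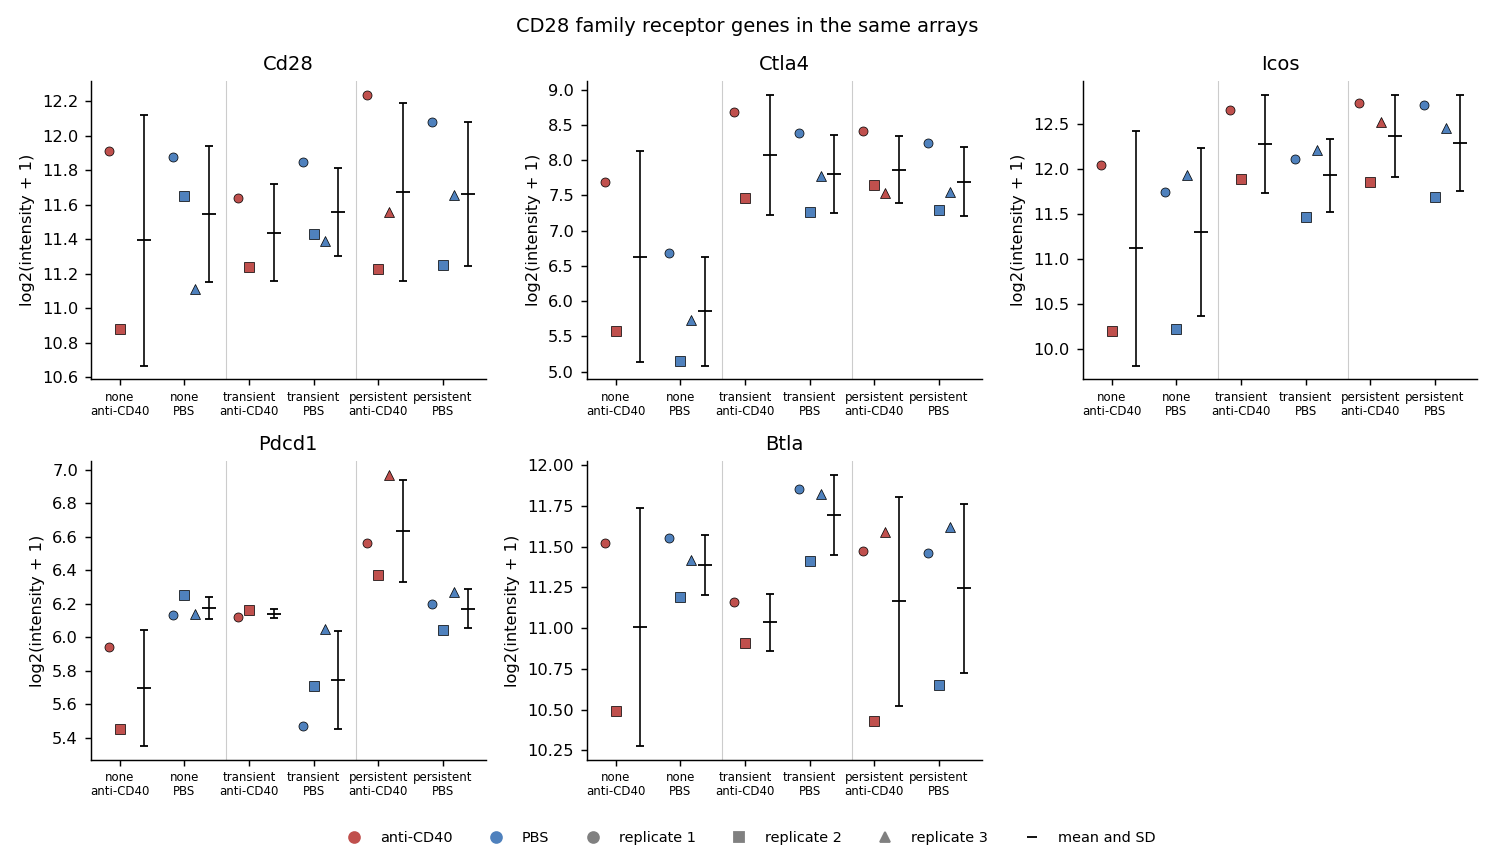
Levels of the 5 CD28 family receptor genes as log2(intensity + 1), 1 point per array, in the 6 groups; bars are the group mean and SD. The 11 arrays of Ctla4 with antigen reach from 7.27 to 8.68, and its 5 arrays without antigen from 5.15 to 7.69.

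Of 8 genes for the ligand and the signalling partners of CD72, only Cd5 was called without the block, for persistent against no antigen. In that comparison 3.57% of all genes were called with PBS and 2.37% with anti-CD40. Cd5 encodes an inhibitory receptor of T cells that has been described as a ligand of CD72. It fell with persistent against no antigen by −1.54 (SE 0.28, adjusted p = 0.0069 in limma) with PBS and −1.47 (SE 0.32, adjusted p = 0.028) with anti-CD40. Its group means were 9.33 ± 0.18 without antigen with anti-CD40 and 9.43 ± 0.32 with PBS, 8.28 ± 0.41 with transient antigen and anti-CD40 and 9.0 ± 0.48 with PBS, and 7.86 ± 0.27 with persistent antigen and anti-CD40 and 7.89 ± 0.09 with PBS. With the block it also fell with anti-CD40 against PBS with transient antigen, by −0.76 (SE 0.19, adjusted p = 0.012). It was the only 1 of the 8 called there, when 10.5% of all genes were. Ptpn6, the phosphatase that CD72 recruits, fell by −0.72 (SE 0.16, adjusted p = 0.004) with persistent against no antigen with anti-CD40, with the block alone. With the block 2 of the 8 fell in that comparison, when 16.4% of all genes were called. Blnk, the B cell adaptor, fell by −0.57 (SE 0.17, adjusted p = 0.031) with transient against no antigen with anti-CD40, also with the block alone. There too 2 of the 8 fell, when 14.0% of all genes were called. Sema4d, which encodes the ligand CD100, was not called, and its group means were 6.37 to 6.99. The list's median difference for persistent against no antigen with PBS was −0.12, against −0.03 over all genes.

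Of 15 measured regulators of B7 ligand and class II levels, 1 rose and 1 fell with persistent against no antigen with PBS without the block, when 3.57% of all genes were called. Irf8, an interferon regulatory factor, rose by 1.30 (SE 0.33, adjusted p = 0.042), and Relb, a subunit of NF-kB, fell by −0.93 (SE 0.24, adjusted p = 0.047), both in limma. With the block 3 rose and 4 fell in this comparison, when 16.7% of all genes were called. Irf4 rose by 1.32 (SE 0.22, adjusted p = 2e-04 in limma) and Hif1a, an oxygen-regulated factor, by 1.20 (SE 0.23, adjusted p = 0.00074). Cd83, known for stabilising class II and CD86 on dendritic cells, fell by −1.15 (SE 0.34, adjusted p = 0.022). Cmtm6 fell by −0.86 (SE 0.22, adjusted p = 0.0092) and Irf1 by −0.52 (SE 0.15, adjusted p = 0.021). The part of any of these in the level of Cd274 was not tested. The median of the list was −0.13, against −0.03 over all genes.

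Other members of the B7 and butyrophilin families were mostly dim, with 5 of 7 measured genes below the median probe set. Vsir, which encodes the inhibitory ligand VISTA, was bright and fell with persistent against no antigen by −0.80 (SE 0.20, adjusted p = 0.0064) with PBS, with the block alone. It was the only 1 of 7 called there, when 16.7% of all genes were. Tnfrsf14, the receptor that binds BTLA, fell by −0.50 (SE 0.16, adjusted p = 0.046) with anti-CD40 against PBS with transient antigen, also with the block alone. Again 1 of 7 was called, when 10.5% of all genes were. Of 15 measured genes of CD28 and PD-1 signalling, none was called without the block, when at most 3.57% of all genes were in a comparison. With it Akt1, a kinase downstream of CD28, rose by 0.98 (SE 0.18, adjusted p = 0.00043) with persistent against no antigen with PBS, and Pik3r1, a regulatory subunit of phosphoinositide 3-kinase, fell by −0.59 (SE 0.18, adjusted p = 0.033). Ptpn11, the phosphatase SHP-2 that PD-1 recruits, rose by 0.68 (SE 0.17, adjusted p = 0.0071) with persistent against no antigen with anti-CD40. For persistent against no antigen with the block, 1 of 15 rose and 1 fell with PBS, when 16.7% of all genes were called. With anti-CD40 2 of 15 rose and 0 fell, when 16.4% were. The list's median with persistent against no antigen with PBS was −0.01, against −0.03 over all genes. Across the 49 genes of these 5 lists and all comparisons, 4 of 588 pairs of gene and comparison were called without the block, or 0.68%, against 0.684% of all pairs over all genes. With the block 46 were called, or 7.82%, against 6.46% of all pairs.

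The genes with the pattern most like that of Cd86 over the 16 arrays, centred on replicate number, among 8498 genes were Pip4k2a (Pearson correlation 0.969), Dusp6 (0.964), Use1 (0.962), Chdh (0.961) and Foxo3 (0.960). Dusp6, a phosphatase of the kinase ERK, averaged 7.35 ± 0.16 with transient antigen and anti-CD40 (n = 2) and 8.37 ± 0.12 with PBS (n = 3). Foxo3, a transcription factor of quiescent cells, averaged 6.80 ± 0.21 with transient antigen and anti-CD40 and 8.24 ± 0.75 with PBS. Those most like Cd72 were Lad1 (0.986), Atp1b1 (0.968), Rnf130 (0.962), Zfp280d (0.961) and Smurf2 (0.958). Lad1, a component of epithelial basement membranes, averaged 4.89 ± 0.34 with persistent antigen and PBS and 7.95 ± 0.22 without antigen with PBS (n = 3 each). Smurf2, a ubiquitin ligase, averaged 8.77 ± 0.06 with persistent antigen and PBS and 10.30 ± 0.19 without antigen with PBS. The likeness depends on the centring, since without it 0 of the 5 genes stayed among the 5 most like Cd86, and 2 of 5 did for Cd72.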

How the data were processed

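Per the labels' protocols, Trizol RNA of the sorted T cells went through 2 rounds of amplification and biotin labelling, and 16 Affymetrix mouse arrays were hybridised. The authors deposited linear intensities. Per the submitters' processing notes these come from RMA. The version is not given in the sources used here, and the values hold no detection calls. They were read as linear and used as log2(intensity + 1), which shrinks differences between dim genes. Of 45101 probe sets, 64 were array controls, 932 had several symbols, 9160 had no entry among the gene names, and 34945 carried a single symbol, which gave 18193 genes, each taken from its brightest probe set.

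Groups came from the labels. The test was limma 3.58.1 (in R 4.3.3, with the package data.table at version 1.17.8), with a trend on intensity and without a block, in 1 linear model of 6 group means over 16 arrays. Genes with a Benjamini-Hochberg adjusted p under 0.05, over all genes, were called. The comparisons were between antigen regimes, between anti-CD40 and PBS, and between the anti-CD40 effects of 2 regimes. Interaction terms of Cd86 and Cd72 were planned as tests and are given as description, since they hold the antigen differences that led to the choice. Where leaving out an array left 1 in its group, that array is taken to vary as the other groups do. The number of arrays limits the precision, and no 2 arrays were identical.

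Replicate numbers were checked for pairing. Deviations from group means correlated at 0.48 to 0.81 (median 0.68) in 36 pairs of arrays with the same number, against a median of −0.53 in 70 other pairs, and 16 of 16 arrays correlated best with their own number. Deviations from a group's own mean offset each other, so the negative values in other pairs are partly built in. For the same reason the 16 arrays are not independent of each other in this check. The numbers are treated as pairing, on the evidence of the values alone, and the fit with the number as a block is given where it changes a call.

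The members, lists and tests were chosen with earlier results of these data known. Named genes are the members, up to 4 of the largest calls from each list, and the 5 genes most like Cd86 and Cd72 among those brighter than the median gene, without clone names, receptor segments or sex-linked genes. Cell type markers, Relb, Cmtm6, Irf1, and list genes named as not called, fall outside this rule and were named after their values were seen. The lists were CD28 family receptors, other B7 and butyrophilin family, CD72 ligand and partners, CD28 and PD-1 signalling, regulators, and markers of T, B, dendritic, class II presenting, NK and CD8, granulocyte and erythrocyte cells. NK and CD8 markers averaged 4.86 to 5.56 on each array (9 of 10 measured) and granulocyte and erythrocyte markers 3.79 to 4.15 (8 of 10). Genes of the lists with no named probe set were not analysed here.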

Additional observations from a re-analysis of the deposited data

How the results depend on the processing

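With the replicate block, calls in the antigen comparisons numbered 4, all of Cd274, against 0 without it, calls in the anti-CD40 comparisons numbered 2 against 1, and calls of list genes 46 against 4. With a block for runs of array numbers the member counts were also 4 and 2. Only the run of replicates 1 and 3 holds arrays both with and without antigen, so replicate 2 adds no direct comparison with no antigen in that fit. Neither block changed another call of a member. Cyclic loess gave 1 antigen call, for Cd274 with PBS in persistent against no antigen (−1.28, with an adjusted p of 0.036 in limma). Of all genes called for transient against no antigen, 61.4% were higher with cyclic loess and 73.9% without it with PBS, and 59.5% and 74% with anti-CD40. Fitting the compared groups alone gave 0 anti-CD40 calls, and leaving out each array gave 0 to 1. The smaller spread once replicate numbers are fitted is part of how the block is built. Log2(intensity + 16), no intensity trend and leaving out dim genes changed no call of a member, although Cd80 and Icosl were too dim to be tested in the last. With log2(intensity + 16) the difference of Cd86 for persistent against transient antigen with PBS was −1.90 and that of Cd72 for persistent against no antigen with PBS was −1.47.

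Values near 0 changed sign, and the cause was not tested. Cd274 for persistent against transient antigen with anti-CD40 was −0.03 with the replicate block and −0.02 with the array run block. For Cd80 the mean of its probe sets gave −0.01 for anti-CD40 with persistent antigen, 0.11 for persistent against no antigen with PBS and −0.02 for transient against no antigen with anti-CD40. Cyclic loess gave 0.03 for Cd80 in persistent against no antigen with PBS, and the array run block −0.06 in transient against no antigen with anti-CD40. For Icosl the mean of probe sets gave −0.03 for anti-CD40 without antigen and −0.05 for persistent against transient antigen with anti-CD40, and cyclic loess 0.02 for anti-CD40 with transient antigen. For Pdcd1lg2 cyclic loess gave −0.03 for transient against no antigen with PBS.

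Leaving out each array also turned uncalled differences, with the ranges that follow. For Cd80 the range was 0.00 to 0.27 for anti-CD40 with persistent antigen, −0.34 to 0.25 for anti-CD40 with transient antigen, −0.12 to 0.47 for the anti-CD40 effect of persistent against transient, −0.08 to 0.51 for the anti-CD40 effect of transient against no antigen, −0.17 to 0.07 for persistent against no antigen with PBS, −0.29 to 0.30 for transient against no antigen with anti-CD40. For Icosl the range was 0.00 to 0.26 for anti-CD40 without antigen, −0.30 to 0.28 for anti-CD40 with transient antigen, −0.13 to 0.16 for the anti-CD40 effect of persistent against no antigen, −0.13 to 0.44 for the anti-CD40 effect of persistent against transient, −0.43 to 0.15 for the anti-CD40 effect of transient against no antigen, −0.21 to 0.04 for persistent against transient antigen with PBS, −0.23 to 0.34 for persistent against transient antigen with anti-CD40. For Cd274 the range was −1.02 to 0.44 for anti-CD40 without antigen, −0.27 to 0.43 for anti-CD40 with persistent antigen, −0.38 to 1.08 for the anti-CD40 effect of persistent against no antigen, −1.44 to 0.02 for the anti-CD40 effect of transient against no antigen, −0.39 to 0.71 for persistent against transient antigen with anti-CD40, −0.60 to 0.13 for transient against no antigen with PBS. For Pdcd1lg2 the range was −0.08 to 0.25 for the anti-CD40 effect of transient against no antigen, −0.19 to 0.08 for persistent against no antigen with anti-CD40, −0.28 to 0.01 for persistent against transient antigen with anti-CD40, −0.17 to 0.13 for transient against no antigen with PBS, −0.07 to 0.22 for transient against no antigen with anti-CD40. For Cd72 the range was −0.47 to 0.04 for anti-CD40 without antigen, −0.36 to 0.11 for anti-CD40 with transient antigen. 

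Depth is limited by signal over background, which cannot be read without detection calls, and Cd80 and Icosl lie at or below the median probe set. Groups hold 2 or 3 arrays each.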

Other observations

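Among 9 NK and CD8 T cell markers, Nkg7, a granule protein of NK and cytotoxic T cells, rose in both comparisons of persistent with no antigen. It was at 10.62 ± 0.41 with persistent antigen and anti-CD40 and at 10.24 ± 0.07 with PBS (n = 3 each), against 7.36 ± 0.78 (n = 2) and 6.44 ± 1.0 (n = 3) without antigen. Its log2 difference of persistent against no antigen with PBS was 3.79 (SE 0.43, adjusted p = 0.00044 in limma). Nkg7 also rose with transient against no antigen with anti-CD40, by 2.57 (SE 0.53, adjusted p = 0.048). For persistent against transient antigen with PBS the rise was 2.47 (SE 0.43, adjusted p = 0.016). Transient against no antigen with PBS was called with the replicate block alone, at 1.32 (SE 0.33, adjusted p = 0.035). With transient antigen it averaged 9.94 ± 0.17 with anti-CD40 (n = 2) and 7.76 ± 0.38 with PBS (n = 3). Anti-CD40 against PBS was called there with the replicate block alone, where the estimate was 2.31 (SE 0.38, adjusted p = 0.00048 in limma). Eomes and Klre1, of the same list, moved the other way with the block. Eomes, a transcription factor of these cells, fell against no antigen by −1.54 (SE 0.27) with transient antigen and PBS, −1.42 (SE 0.33) with transient antigen and anti-CD40, −1.32 (SE 0.27) with persistent antigen and PBS and −1.35 (SE 0.31) with persistent antigen and anti-CD40. Klre1, an NK cell receptor, fell with anti-CD40 by −0.54 (SE 0.16) with transient and −0.51 (SE 0.15) with persistent against no antigen.

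H2-Oa, a subunit of the class II chaperone H2-O, fell with persistent against transient antigen with PBS by −1.84 (SE 0.27, adjusted p = 1e-04 in limma with the replicate block). It averaged 5.47 ± 0.45 with persistent antigen and PBS and 7.31 ± 0.92 with transient antigen and PBS (n = 3 each). Of the 9 class II genes it was the only 1 called there, when 11.4% of all genes were. With transient against no antigen with anti-CD40, H2-Aa, a class II chain, fell by −1.38 (SE 0.30, adjusted p = 0.0041) and H2-Ob by −2.31 (SE 0.46, adjusted p = 0.0017), both with the block. In that comparison 3 of 9 class II genes fell and 0 rose, when 14.0% of all genes were called. Cd22, an inhibitory receptor of B cells, rose with persistent against no antigen with PBS by 1.44 (SE 0.24, adjusted p = 0.004) without the block. It was the only 1 of 18 B cell markers called there, when 3.57% of all genes were. With the block 3 of the 18 rose and 1, Fcer2a, fell in this comparison, when 16.7% of all genes were called.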
